A study of Mus musculus with 4 samples.

Results

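Skeletal muscle fibre genes in mouse sciatic nerve were followed across 4 RNA sequencing libraries. The 54 genes, of 24062 in the count table, were taken by symbol from a list of sarcomere, excitation and muscle metabolism genes, and all 54 symbols were found. All 4 libraries came from C57BL/6 mice aged 4 months, with 1 library per genotype. WT carried no engineered allele. PKO was P2RY14-/-, which lacks a receptor for UDP-sugars. NF1 was Nf1fl/fl with Dhh Cre, which removes the RAS regulator neurofibromin. PKO-NF1 was P2RY14-/- with Dhh Cre and the Nf1 allele written Nf1fl/f. Dhh Cre acts in the Schwann cell lineage. Whether other cells of the nerve, or any muscle beside it, kept their Nf1 alleles was not tested. How many animals made up a library, and of which sex, is not stated in the labels, which call the NF1 library a repeat at 4 months. With no replicates there is no replicate check on any difference, and no p-value is given.

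A skeletal muscle fibre is a large multinucleate cell packed with sarcomeres, in which thick filaments of myosin pull on thin filaments of actin that are anchored at Z-discs. Fibres come in slow (type I) and fast (types IIA, IIX and IIB) forms, which use different isoforms of myosin, troponin, myosin-binding protein C and calsequestrin. A peripheral nerve has no muscle fibres of its own, while the sciatic nerve runs between the mainly fast muscles of the thigh. Several members are not confined to skeletal muscle: heart also expresses Myh7, Myl2, Myl3, Tnnc1 and Casq2, and smooth muscle also expresses Tpm2 and Des.

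Promoters of 5 members are shown because they stand for both ends of the pattern described below: Acta1 and Myh4 had low counts in PKO and many in the library labelled NF1, Myh7 had no read anywhere, and the calsequestrin pair Casq1 and Casq2 had the slow form above the fast form in the 3 other libraries. The sequences are the 250 bases before the RefSeq start site on GRCm38.p6, read 5′ to 3′. Capitals mark matches to 4 motifs on either strand: the TATA box TATAAA, the E-box CANNTG bound by MyoD-family factors, the MEF2 box in a strict form (CTA, 4 bases of A or T, then TAG), and the CArG box bound by serum response factor (CC, 6 bases of A or T, then GG).
Acta1, chr8:123894776-123895025, minus strand: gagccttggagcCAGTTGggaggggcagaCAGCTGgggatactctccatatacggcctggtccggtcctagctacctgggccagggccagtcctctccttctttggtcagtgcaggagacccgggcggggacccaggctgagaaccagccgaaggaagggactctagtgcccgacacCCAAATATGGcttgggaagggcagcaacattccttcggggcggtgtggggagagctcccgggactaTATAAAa
Myh4, chr11:67237562-67237811, plus strand: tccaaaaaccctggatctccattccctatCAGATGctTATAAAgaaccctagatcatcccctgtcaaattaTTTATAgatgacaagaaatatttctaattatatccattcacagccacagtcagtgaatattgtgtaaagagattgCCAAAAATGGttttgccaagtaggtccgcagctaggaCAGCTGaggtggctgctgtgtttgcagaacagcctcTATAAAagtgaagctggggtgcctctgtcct
Myh7, chr14:54994627-54994876, minus strand: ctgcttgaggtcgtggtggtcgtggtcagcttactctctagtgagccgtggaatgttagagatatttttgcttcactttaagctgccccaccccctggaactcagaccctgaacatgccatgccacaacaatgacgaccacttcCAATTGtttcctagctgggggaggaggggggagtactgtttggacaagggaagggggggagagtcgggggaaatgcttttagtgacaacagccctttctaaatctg
Casq1, chr1:172219896-172220145, minus strand: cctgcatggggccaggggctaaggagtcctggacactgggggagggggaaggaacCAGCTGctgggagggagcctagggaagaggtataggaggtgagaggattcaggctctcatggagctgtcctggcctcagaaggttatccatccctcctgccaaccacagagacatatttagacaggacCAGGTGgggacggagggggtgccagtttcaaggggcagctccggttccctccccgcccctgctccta
Casq2, chr3:102086165-102086414, plus strand: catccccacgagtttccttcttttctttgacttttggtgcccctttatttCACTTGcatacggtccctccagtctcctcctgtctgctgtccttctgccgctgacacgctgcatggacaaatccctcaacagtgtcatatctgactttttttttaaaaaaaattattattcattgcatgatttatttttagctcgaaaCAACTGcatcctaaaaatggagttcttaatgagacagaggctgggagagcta

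Acta1 held 2 E-boxes, 1 CArG box and 1 TATA box, and Myh4 held 2 E-boxes, 1 CArG box and 3 TATA boxes. Myh7 held 1 E-box, and Casq1 and Casq2 held 2 each, with no match to these forms of the other motifs. RefSeq promoters matched 42 of the 54 members, with 50 start sites. An E-box lay in 84% of these windows against 66.2% of all 32851 promoters of that length. The E-box form CAGCTG, a subset of CANNTG, lay in 44% against 13%. The CArG box lay in 10% against 1.47%, the MEF2 box in 6% against 0.508%, and TATAAA in 18% against 12.4%. These matches describe letters in the window and not bound sites. By isoform, an E-box lay in 75% of the 8 fast isoform windows and in 100% of the 12 slow isoform windows.

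Total counts were 14111201 to 20362685 per library, and levels are given as CPM, counts divided by library size after TMM scaling between libraries. A count of 0 allows up to 3 counts, or 0.152 to 0.183 CPM. Folds set 1 library against another, with 95% intervals for counting error alone; reads amplified by PCR without molecular identifiers are not independent molecules. Nf1 was at 72.8 (WT), 41.0 (PKO), 20.5 (PKO-NF1) and 63.4 CPM in the library labelled NF1, so its gene-level count there was close to that of WT. P2ry14 was at 37.65, 10.85, 10.6 and 65.3 CPM in the same order, so the libraries labelled P2RY14-/- still held reads of that gene (193 counts in PKO and 173 in PKO-NF1). Which part of the gene is deleted is not stated in the labels. Sex-linked transcripts differed between libraries in more than 1 comparison: Xist, of females, had 10304 (WT), 4948 (PKO), 9 (PKO-NF1) and 39699 (NF1) counts, and the Y-linked Ddx3y had 813, 396, 842 and 0. WT and PKO thus held both transcripts, PKO-NF1 almost no Xist, and the library labelled NF1 no Ddx3y. All 4 libraries held nerve RNA: the summed level of 5 myelin genes was 6214 CPM in NF1, and WT (20836), PKO (31142) and PKO-NF1 (15558) had more. In all 4 comparisons, genotype cannot be told apart from the animals, their sex or how the nerve was dissected and prepared.

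The 54 genes together took 8.29% of all counts in the library labelled NF1, 0.187% in WT, 0.0593% in PKO-NF1 and 0.03545% in PKO. NF1 was far above the rest, WT came next, and both P2RY14-/- libraries lowest. In bulk RNA, a different number of muscle fibres and a different amount of RNA per fibre cannot be told apart. Of the 53 members with over 3 counts in some library, 49 were highest in NF1, against 24.8% of all genes. The order from NF1 through WT and PKO-NF1 down to PKO held for 30 members, and that from NF1 through WT and PKO down to PKO-NF1 for another 10. The exceptions to NF1 as the highest were Tnnt1, highest in PKO, and Tnni1, Tnnc1 and Casq2, highest in PKO-NF1. Each of these 4 is the slow or cardiac form of its family. Among WT, PKO and PKO-NF1 alone, 50 members had over 3 counts and 38 of them were highest in WT, against 39.4% of all genes.

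**Figure D1:**
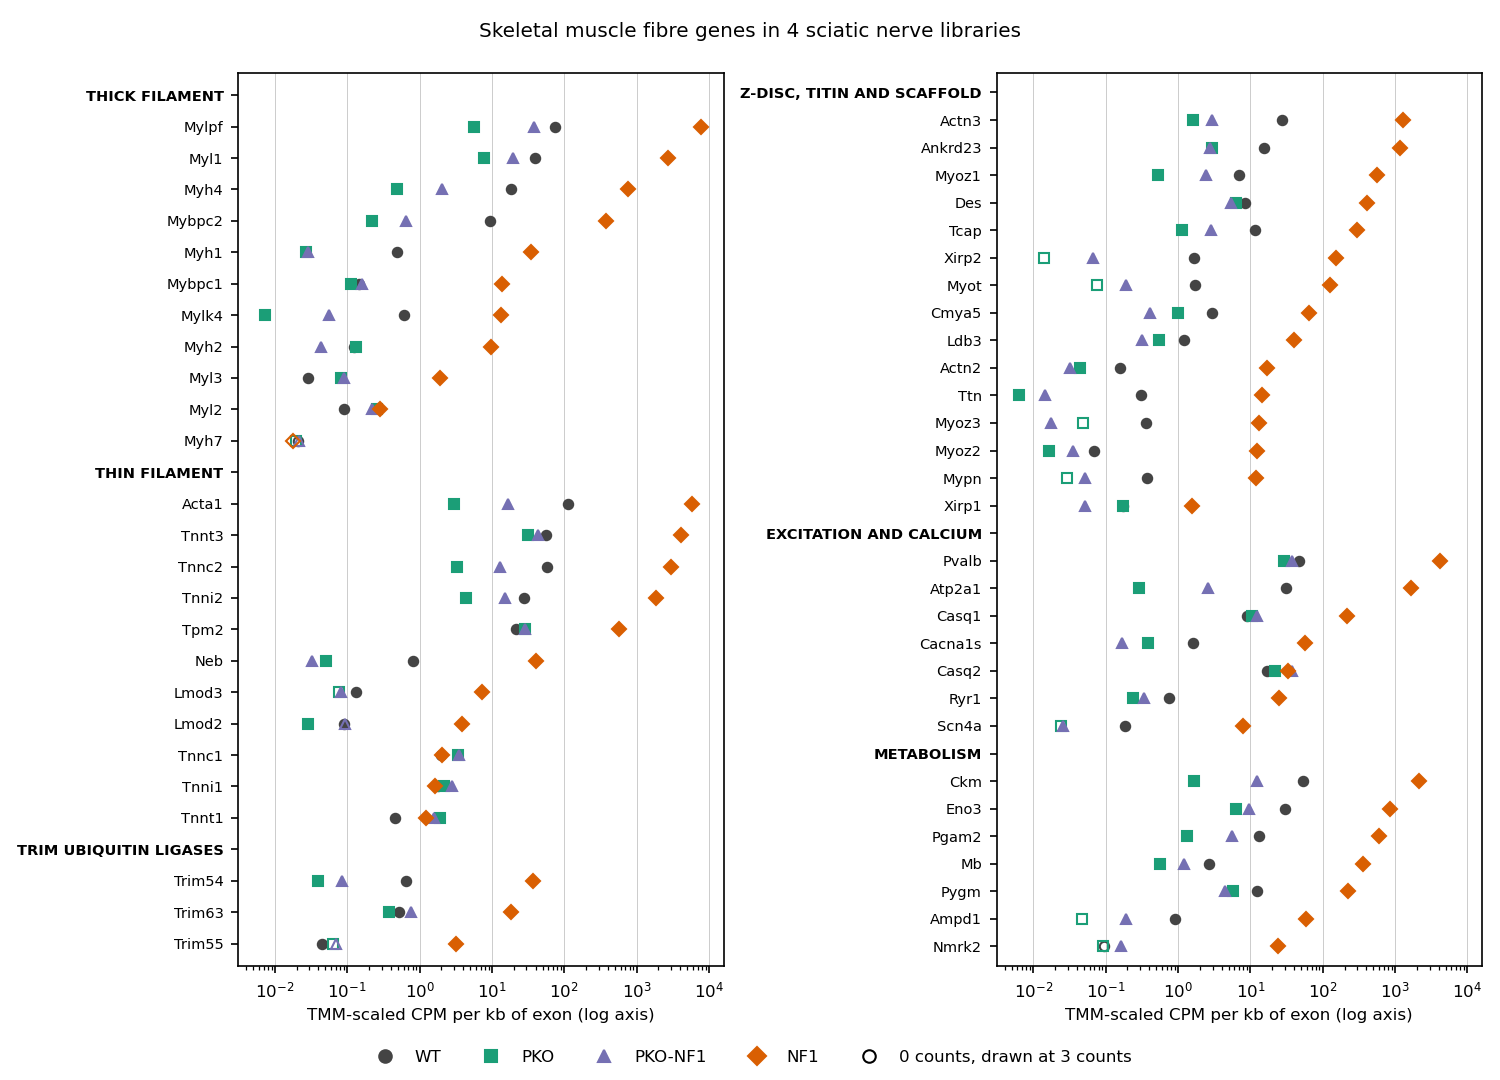
Level of each of the 54 members in the 4 libraries as TMM-scaled CPM per kb of exon on a log axis, grouped by role, with 1 point per library and open symbols for 0 counts drawn at 3 counts. NF1 is the highest point for 49 members, and the points of Tnnt1, Tnni1, Tnnc1 and Casq2 lie close together.

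Thick filament genes were raised in the library labelled NF1 for the fast forms and for some slow ones. Mylpf, the fast regulatory light chain, was at 80.1 (WT), 6.07 (PKO), 40.6 (PKO-NF1) and 8362 CPM in NF1. Myl1, the fast essential light chain, was at 81.0, 16.3, 39.9 and 5682 CPM in the same order. Myh4, the type IIB myosin heavy chain (chromosome 11, 67238029 to 67260446, plus strand, GRCm38), was at 109.9, 2.92, 12.1 and 4616 CPM. All 3 were lowest in PKO and far above the other libraries in NF1, which exceeded WT by 104-fold for Mylpf (interval 99.0 to 110), 70.1-fold for Myl1 (66.5 to 74.0) and 42.0-fold for Myh4 (40.1 to 44.0). Myh1, the type IIX myosin, had 52, 3, 3 and 4284 counts in WT, PKO, PKO-NF1 and NF1, and Myh2, the type IIA myosin, had 15, 17, 5 and 1345. Myh1, Myh2 and Myh4 are neighbours on chromosome 11 with very similar sequences, and the handling of reads matching several of them was not given in the sources used here. Myh7, the slow myosin of type I fibres and of the heart, had 0 counts in all 4 libraries.

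The slow light chains were close to the limit of detection. Myl2 had 3, 9, 7 and 11 counts in WT, PKO, PKO-NF1 and NF1, and its NF1 to WT ratio of 3.15 had an interval of 0.833 to 17.6. Myl3 had 1, 3, 3 and 76 counts, and NF1 was 65.4-fold above WT with an interval of 11.4 to 2615 that reflects a single WT read. Myosin-binding protein C, which braces the thick filament, was mainly the fast Mybpc2, at 33.5, 0.787, 2.32 and 1363 CPM. Its slow form Mybpc1 was at 0.649, 0.506, 0.732 and 62.2 CPM, so the 3 other libraries lay close together and NF1 was 95.8-fold above WT (53.3 to 192). Mylk4, a myosin light chain kinase family member of striated muscle, had 80, 1, 7 and 2021 counts.

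Thin filament genes held the clearest divide between fast and slow forms. Acta1, skeletal muscle alpha-actin (chromosome 8, 123891769 to 123894751, minus strand), was at 173.6 (WT), 4.61 (PKO), 25.5 (PKO-NF1) and 8973 CPM in the library labelled NF1. NF1 exceeded WT by 51.7-fold (49.8 to 53.6), and per kb of exon Acta1 stood below Mylpf in NF1 (5841 against 7874 CPM per kb). The fast troponins followed: Tnnt3, which binds tropomyosin, was at 87.9, 49.25, 68.5 and 6540 CPM. Tnni2, the inhibitory subunit, was at 41.5, 6.58, 23.0 and 2771 CPM. Tnnc2, the calcium sensor, was at 45.7, 2.64, 10.4 and 2379 CPM, although 74.0% of its exon bases are shared with Ube2c on the opposite strand and whether reads were counted by strand is not stated. Their NF1 to WT folds were 74.4, 66.7 and 52.0.

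The slow troponins showed no difference of that size. Tnni1 was at 6.37 (WT), 7.93 (PKO), 10.1 (PKO-NF1) and 5.84 CPM in NF1. Tnnc1, which slow fibres and heart share, was at 2.065, 3.54, 3.66 and 2.13 CPM. Tnnt1 was at 1.00, 4.22, 3.54 and 2.69 CPM. Tnni1 and Tnnc1 differed between NF1 and WT by no more than counting error (1.09-fold lower, 0.832 to 1.43, and 1.03-fold higher, 0.643 to 1.67, or log2 -0.17 for Tnnc1 when scaled by total counts alone), and Tnnt1 was 2.68-fold higher in NF1 (1.53 to 4.94) but higher still in PKO. Among the remaining thin filament genes, Tpm2 (beta-tropomyosin) was at 63.1, 84.6, 83.5 and 1682 CPM, with the 3 other libraries within 1.34-fold of each other. Neb, which encodes the filament-length protein nebulin, was at 21.2, 1.35, 0.854 and 1065 CPM. The leiomodins Lmod2 and Lmod3, which nucleate actin, had 152 and 314 counts in NF1 and at most 5 elsewhere.

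Z-disc, titin and scaffold genes were all raised, with 15 of 15 at least 2-fold above WT, against 10.3% of all genes. Actn3, the alpha-actinin of fast fibres, was at 78.2 (WT), 4.67 (PKO), 8.54 (PKO-NF1) and 3771 CPM in the library labelled NF1. Ankrd23, an ankyrin repeat protein that binds titin, was at 41.2, 7.93, 7.38 and 3175 CPM. Myoz1, the fast form of the calcineurin-binding Z-disc protein myozenin, was at 13.3, 1.01, 4.58 and 1062 CPM. Per kb of exon these 3 were the most abundant of the group in NF1, at 48.2-fold (45.65 to 50.9), 77.1-fold (71.5 to 83.2) and 79.65-fold (69.9 to 91.2) over WT. Myoz2, the slow and cardiac myozenin, had 4, 1, 2 and 823 counts, and was 177-fold above WT (68.85 to 651). Xirp1, an actin-binding repeat protein, had the smallest ratio of the group, with 17, 18, 5 and 179 counts (9.055-fold, 5.50 to 15.9). Its relative Xirp2 had 339, 0, 13 and 35773 counts. Xirp2 was thus without a read in PKO, where Xirp1 was level with WT. The largest protein of the sarcomere, titin (Ttn), was at 36.0, 0.731, 1.71 and 1672 CPM. The other members of the group, Actn2, Myot, Myoz3, Mypn, Tcap, Ldb3, Cmya5 and Des, were 21.8-fold to 108-fold above WT.

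The muscle ubiquitin ligases of the TRIM family had low counts outside the library labelled NF1. Trim54 had 16, 1, 2 and 1060 counts in WT, PKO, PKO-NF1 and NF1, and Trim55 had 2, 0, 0 and 168. Trim63 (MuRF1), a ligase that rises in muscle atrophy, had 25, 19, 35 and 1034 counts, and its NF1 to WT ratio of 35.6 (24.0 to 55.2) was the smallest of the 3.

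Genes of excitation and calcium handling were raised in 6 of 7 cases, against 10.3% of all genes at least 2-fold above WT. Pvalb, the calcium buffer of fast fibres, was at 49.3 (WT), 30.8 (PKO), 39.6 (PKO-NF1) and 4315 CPM in the library labelled NF1. Atp2a1, the fast calcium pump SERCA1, was at 106.9, 1.01, 9.03 and 5734 CPM, with 21.9% of its exon bases shared with Rabep2 on the opposite strand. These genes differed in the low libraries: Pvalb varied by at most 1.60-fold among WT, PKO and PKO-NF1, while Atp2a1 was 106-fold lower in PKO than in WT (66.6 to 179). Casq1, the fast calsequestrin that stores calcium in the sarcoplasmic reticulum, was at 17.5, 20.2, 23.7 and 424.8 CPM, and its slow and cardiac relative Casq2 at 47.0, 60.2, 104.5 and 90.6 CPM. Casq2 was the member of the group that missed 2-fold, at 1.93-fold above WT (1.77 to 2.10). Its level in PKO-NF1 was 1.15-fold above that in NF1 (1.08 to 1.23), an order that turned, to log2 -0.23, with the trends of the ratio over transcript length and GC content subtracted. The calcium release channel Ryr1, the voltage sensor Cacna1s and the muscle sodium channel Scn4a were 32.6-fold, 35.3-fold and 42.4-fold above WT in NF1.

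All 7 genes of muscle metabolism were raised in the library labelled NF1, against 10.3% of all genes at least 2-fold above WT. Ckm, muscle creatine kinase, was at 153.5 (WT), 4.78 (PKO), 36.3 (PKO-NF1) and 6275 CPM in NF1, with 15.5% of its exon bases shared with an antisense gene. Eno3, the muscle enolase, was at 52.0, 11.02, 16.9 and 1478 CPM, and Pgam2, the muscle phosphoglycerate mutase, at 11.2, 1.12, 4.64 and 508.8 CPM. Their NF1 to WT folds were 40.9, 28.4 and 45.4. Pygm, muscle glycogen phosphorylase, had the smallest, 18.0-fold (16.7 to 19.5), with 39.3, 18.3, 14.2 and 708.9 CPM. Mb encodes myoglobin, the oxygen store of oxidative fibres, and had 68, 15, 30 and 10519 counts, which put NF1 133-fold above WT (105 to 171). Nmrk2, a nicotinamide riboside kinase of muscle, had 0 counts in WT and PKO, 5 in PKO-NF1 and 892 in NF1. NF1 was at least 207.5-fold higher than WT (the lower interval bound at the WT count of 0). Ampd1, muscle AMP deaminase, had 55, 0, 11 and 4056 counts.

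In the comparison of the library labelled NF1 with WT, which asks what Nf1 loss in the Dhh Cre lineage changes in nerve, 49 of 54 members were at least 2-fold higher with an interval excluding 1, and 0 were lower. By the same rule 10.3% of the 16225 genes with a ratio were higher and 6.03% lower. The median member was 48.2-fold higher (log2 5.59, quartiles 4.99 and 6.17), and the median of all genes was log2 0.02. The 11 fast isoforms were all higher, by a median of 70.1-fold. Of the 9 slow isoforms 4 were higher (Mybpc1, Myoz2, Myl3 and Tnnt1) and 4 were not (Myl2, Tnni1, Tnnc1 and Casq2), while Myh7 gave no ratio. The 34 members outside these families were all higher, by a median of 45.9-fold. The members nearest to 2-fold were Tnnt1 (2.68) and Myl2 (3.15) above it, the latter with an interval that includes 1, and Casq2 (1.93) and Tnni1 (1.09, in the lower direction) below it. Myelin and fat genes differed in the same comparison: all 5 myelin genes and 3 of 4 adipocyte genes were at least 2-fold lower in NF1, none of them at 0. Their part in the muscle differences was not tested.

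**Figure D2:**
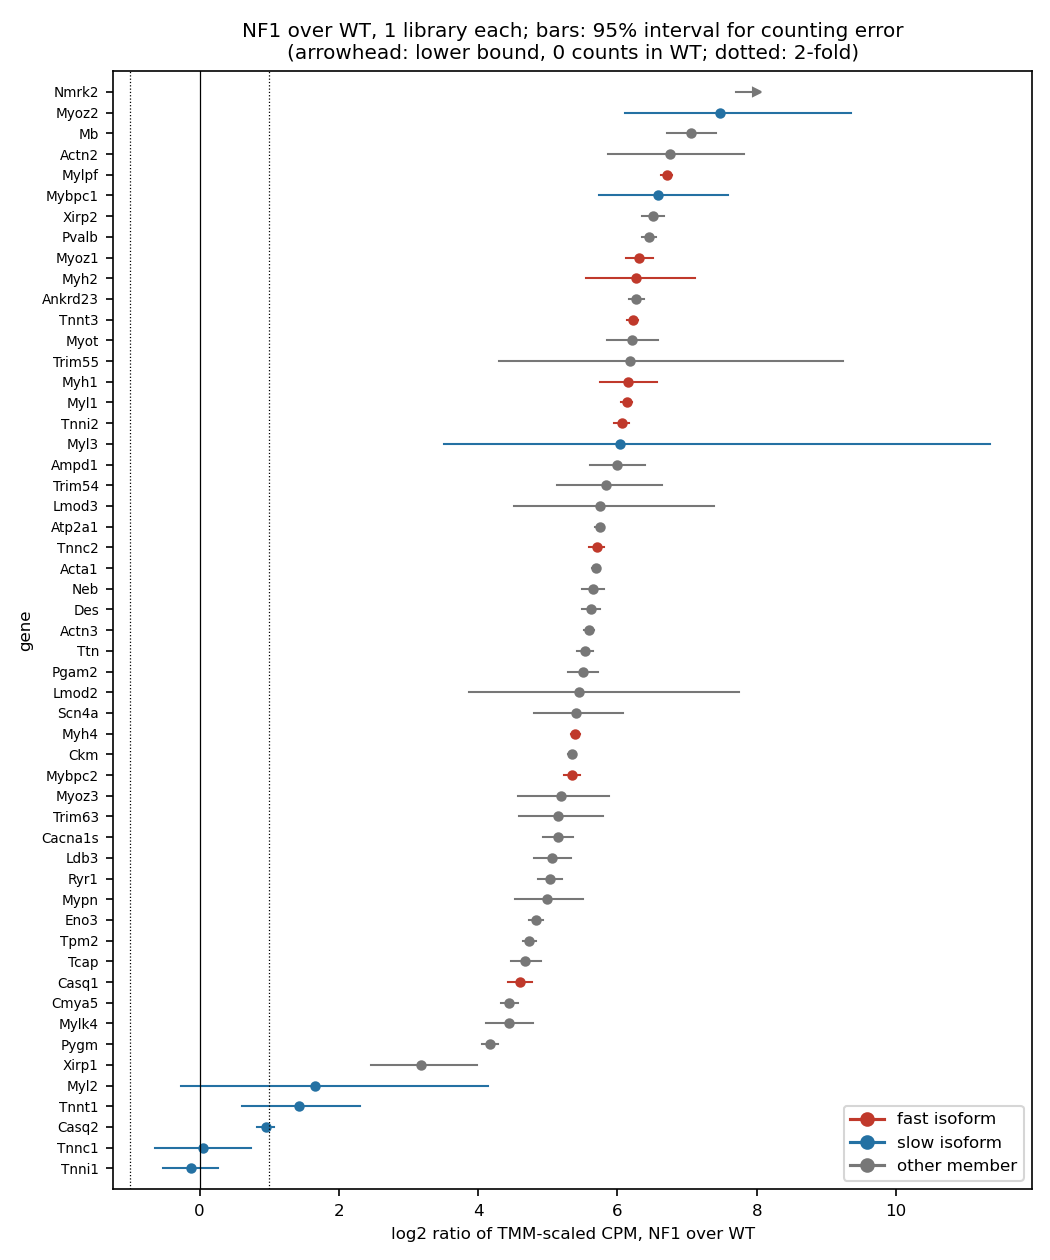
Log2 ratio of TMM-scaled CPM in NF1 over WT for the 53 members with a ratio, 1 library each, with bars for the 95% interval of counting error, an arrowhead for a lower bound and dotted lines at 2-fold. Red points (fast isoforms) lie between 4.60 and 6.71, and the 5 lowest points are slow isoforms in blue.

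Fast and slow forms were then compared within each library, so that library scaling drops out. Levels were taken per kb of exon, and some shares depend on the length used, as given below. The fast form made up over 50% of the family's signal in all 9 families in the library labelled NF1, with the whole counting interval above 50%. It did so in 8 of 9 families in WT and in PKO-NF1, where calsequestrin was the exception, and in 6 of 9 in PKO. In NF1 the slow form made up at most 0.0875% in the families of both light chains, troponin I, troponin T and troponin C. The slow share there was 3.51% in myosin-binding protein C (3.32 to 3.71), 2.13% in myozenin (1.98 to 2.28) and 13.2% in calsequestrin (12.6 to 13.8). These 3 families had the largest slow shares in NF1. For myosin heavy chain the slow Myh7 was at 0 beside 96600 fast counts, with an upper interval bound of 0.00268% for the slow share.

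In the troponin and myosin-binding protein C families the slow share was larger in both P2RY14-/- libraries than in WT. For troponin I the fast share was 99.9% in NF1, 94.0% in WT, 84.5% in PKO-NF1 and 66.6% in PKO, with intervals that do not overlap; from raw counts without length, the PKO share was 45.35%. For troponin C it was 99.9%, 96.65%, 78.8% and 49.3%, the last with an interval of 39.4% to 59.0%. For myosin-binding protein C it was 96.5%, 98.5%, 79.9% and 66.1%, the last with an interval of 44.0% to 83.6%. Calsequestrin was the family in which the slow form led in all 3 libraries outside NF1 with the whole interval on its side of 50%, with a fast share of 24.15% in PKO-NF1, 32.0% in PKO and 34.35% in WT, against 86.8% in NF1. Summed over the 9 families, the fast forms exceeded the slow forms per kb by 326-fold in NF1, 13.8-fold in WT, 3.14-fold in PKO-NF1 and 2.14-fold in PKO. Without the calsequestrins these folds were 646, 63.9, 15.9 and 6.73. The slow forms without Casq2 summed to 4.54 (WT), 7.99 (PKO), 8.44 (PKO-NF1) and 33.0 CPM per kb in NF1, a narrower range than the fast forms without Casq1, at 290.1, 53.8, 134.3 and 21319 CPM per kb.

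**Figure D3:**
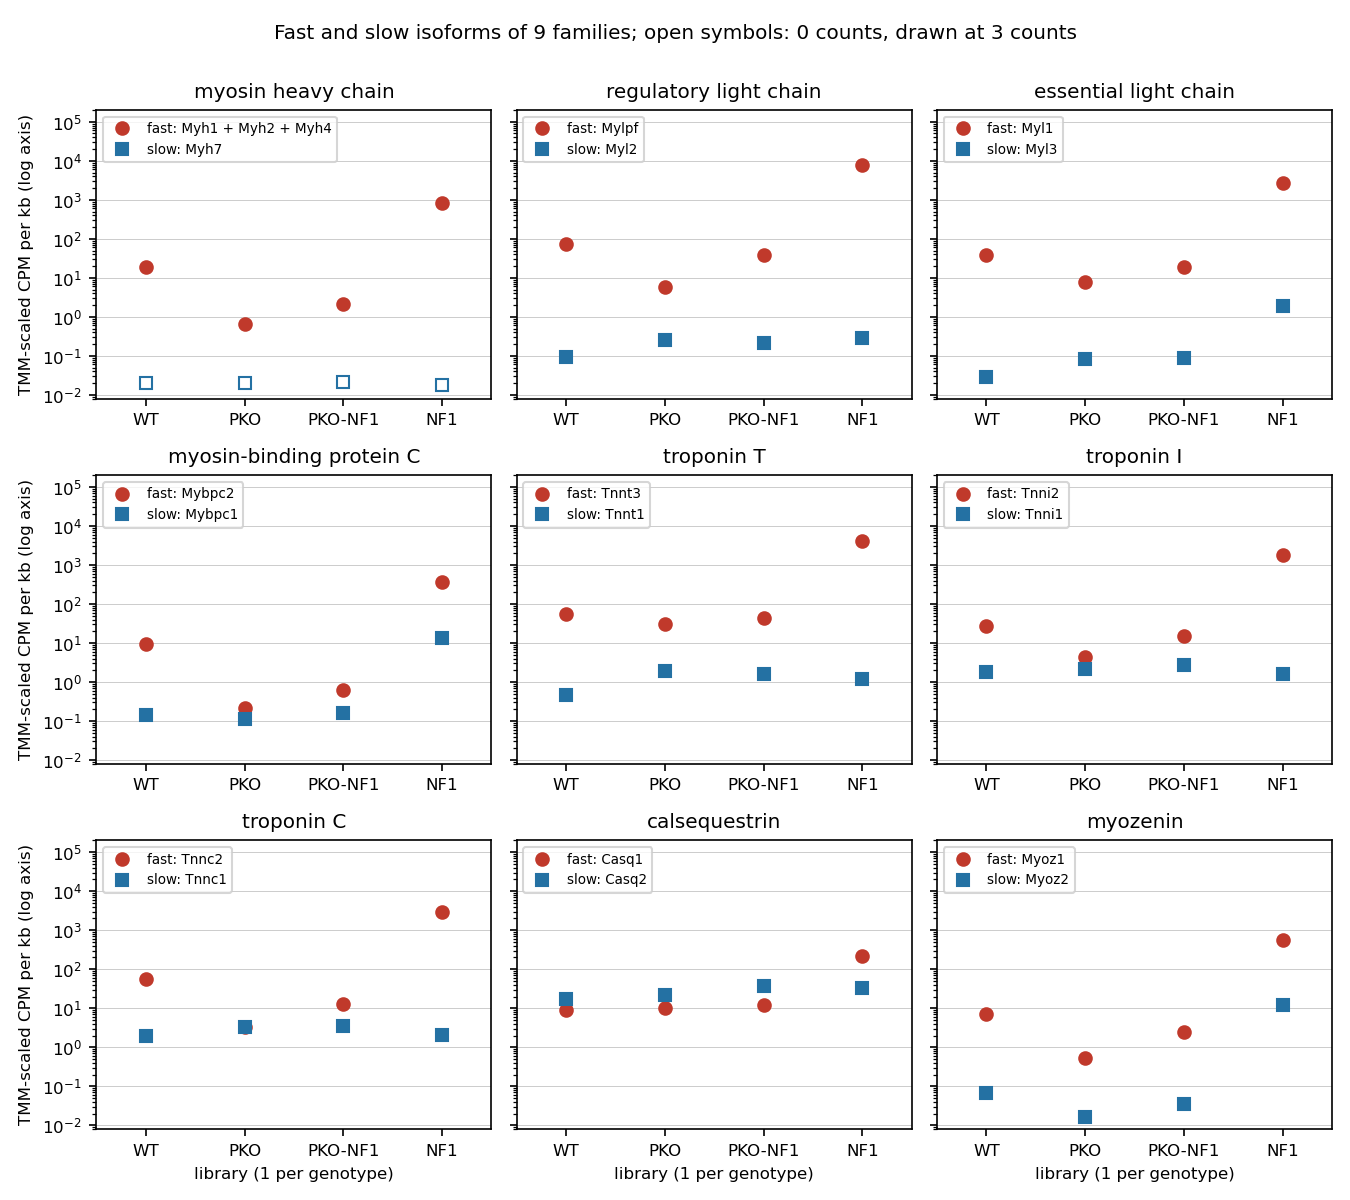
Fast (red circles) and slow (blue squares) isoform levels of 9 families in the 4 libraries as TMM-scaled CPM per kb on a log axis, with 1 point per library and open symbols for 0 counts drawn at 3 counts. The fast form lies above the slow form in NF1 in every panel, and the calsequestrin panel has the order turned in WT, PKO and PKO-NF1.

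Among the fast myosin heavy chains the type IIB form Myh4 led in every library. Myh4 took 94.2% of the fast myosin counts in the library labelled NF1, with 4.435% for Myh1 and 1.39% for Myh2. Its share was 96.5% in WT (95.6 to 97.3), 96.1% in PKO-NF1 (92.5 to 98.3) and 72.2% in PKO (60.4 to 82.1), where the total was 72 counts. Myh2 held 23.6% of the PKO counts (14.4 to 35.1), from 17 reads.

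Comparing PKO-NF1 with PKO asks about Nf1 loss in P2RY14-/- mice, and both libraries had little muscle signal. Here 17 members were at least 2-fold higher and 4 lower, against 5.31% and 9.37% of 15974 genes, and the median of the 43 members with a ratio was log2 0.85 (all genes -0.01). The largest difference among called members was that of Atp2a1, from 18 to 148 counts (8.92-fold, 5.45 to 15.5), followed by Ckm at 7.60-fold (6.04 to 9.65), Mylpf at 6.68-fold (5.445 to 8.27) and Acta1 at 5.53-fold (4.36 to 7.10). Of the 11 fast isoforms 7 were higher and 1 lower, and of the 9 slow isoforms 0 were called in either direction. The 4 lower members were Myh2, Xirp1, Cmya5, which encodes the muscle scaffold myospryn, and Cacna1s, all with 79 counts or fewer in PKO-NF1; an antisense gene shares 20.7% of the exon bases of Cmya5. With the trends of the ratio over transcript length and GC content subtracted, 18 members were higher and 0 lower, and 15 of the 17 were among those 18. Myelin genes differed in the same comparison: by the same rule 4 of 5 were lower in PKO-NF1 and 0 higher, by a median of 2.67-fold over the 5, and of 4 adipocyte genes 1, Plin1, was lower. Their part in the muscle differences was not tested here either. The members nearest to 2-fold were Mb (2.17 higher) and Cacna1s (2.30 lower) past it and Trim63 (1.999) and Actn3 (1.83) short of it.

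In PKO against WT, which asks what loss of P2ry14 alone changes, 32 members were at least 2-fold lower and 1 higher, against 5.26% and 9.88% of 16022 genes. The median of 49 members with a ratio was log2 -2.31, which is 4.97-fold lower (all genes -0.07). Members with 0 counts in PKO included Xirp2, at least 95.9-fold lower than WT (the lower interval bound at the PKO count of 0), Myot (at least 17.7-fold) and Ampd1 (at least 15.1-fold). Ttn was 49.25-fold lower (28.6 to 93.0), Acta1 37.65-fold lower (30.2 to 47.5) and Myh4 37.6-fold lower (28.55 to 50.5). The higher member was Tnnt1, at 75 against 17 counts (4.204-fold, 2.46 to 7.59). Pygm (2.14) and Ldb3 (2.17) lay just past 2-fold and Tnnt3 (1.78) just short of it, while Lmod3 had 5 counts in WT and 0 in PKO, too few to separate the libraries. Of 4 adipocyte genes 2 were at least 2-fold higher in PKO than in WT, Adipoq (550.8 to 1570 CPM) and Cfd (3122 to 8465), while Lpl (615.8 to 1108) and Plin1 (216.0 to 206.3) were not called. The 4 together, mostly Cfd, summed to 4504 (WT), 11349 (PKO), 7860 (PKO-NF1) and 2138 CPM in NF1. Their part in the lower muscle levels was not tested.

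In PKO-NF1 against the library labelled NF1, 48 members were at least 2-fold lower and 0 higher, against 13.4% and 7.85% of 16280 genes. The median of 53 members was 159-fold lower (log2 -7.31; all genes -0.03). The extremes were Xirp2, 2289-fold lower (1338 to 4299), Neb, 1247-fold lower (743 to 2282), and Myh1, 1188-fold lower (406 to 5761). The smallest falls among called members were Casq1 (17.9-fold) and Tpm2 (20.15-fold), and those nearest to 2-fold on the other side were Tnni1 (1.74-fold higher) and Tnnc1 (1.72-fold higher). The 4 comparisons share libraries, each entering 2 of them, so they are not independent of each other.

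The make-up of the members' counts also differed between libraries, and which cells these counts came from was not tested. In raw counts, which grow with gene length, Acta1 led in WT and in the library labelled NF1, with 11.2% of the members' counts in each (10.79 to 11.55 and 11.14 to 11.24). In PKO the leaders were Tpm2 with 20.8%, Casq2 with 14.8% and Tnnt3 with 12.1%, and in PKO-NF1 Casq2 with 16.2%, Tpm2 with 13.0% and Tnnt3 with 10.65%. Over the 54 members, the Spearman correlation of level was 0.92 between WT and NF1, 0.90 between PKO and PKO-NF1, 0.88 between WT and PKO-NF1, 0.73 between PKO-NF1 and NF1, 0.72 between WT and PKO and 0.55 between PKO and NF1. These values describe genes within single libraries, which share depth and gene length, and genes are not independent replicates. A member's level in WT was 2.075% of its NF1 level at the median (quartiles 1.38 and 3.14), while the medians were 0.485% in PKO-NF1 (0.2325 to 1.18) and 0.237% in PKO (0.05775 to 1.40).

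**Figure D4:**
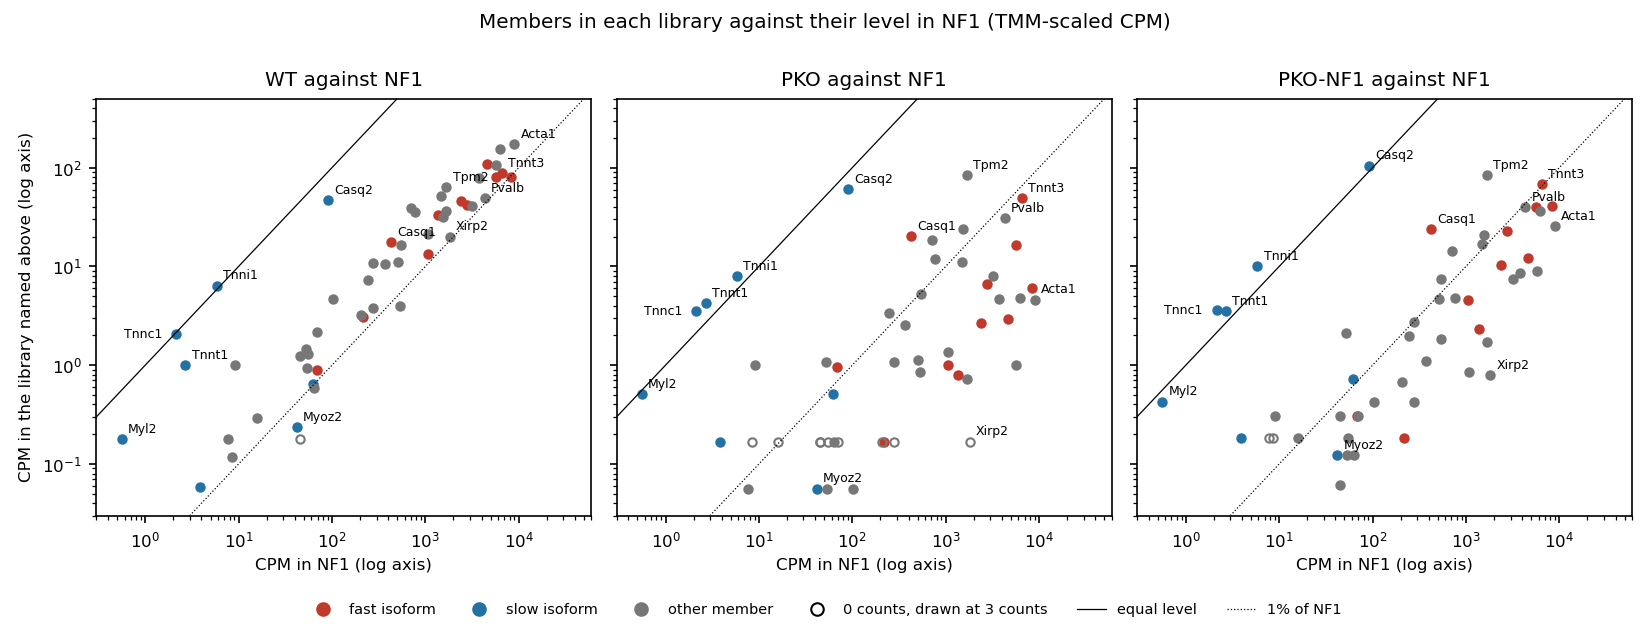
TMM-scaled CPM of 53 members in WT, PKO and PKO-NF1 (y axes, log) against their level in NF1 (x axes, log), with a solid line at equal level, a dotted line at 1% of NF1 and open circles for 0 counts drawn at 3 counts. The WT points run near the dotted line except Casq2, Tnni1, Tnnc1, Tnnt1, Myl2 and Xirp1, and the PKO points scatter widely to both sides of it.

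Other muscle genes, from lists chosen with earlier results of these data known, were set beside the members. Which kinds of muscle their RNA came from was not tested. Of 41 further genes of striated fibres 38 were higher in the library labelled NF1 than in WT, against 10.3% of all genes. The median log2 of the 41 was 5.04, and their summed level was 314.4, 251.8, 194.6 and 5883 CPM in WT, PKO, PKO-NF1 and NF1. Among those with the highest CPM in NF1, which is not corrected for length, were Trdn, which couples the calcium release channel to calsequestrin (4.43 to 538.5 CPM from WT to NF1), and Pfkm, muscle phosphofructokinase (42.2 to 380.1). Myom3, Dmd and Dysf were the 3 that missed 2-fold. In PKO against WT, Cox7a1 and Cox8b, respiratory chain subunits of muscle and of brown fat, were 4.41-fold and 5.36-fold higher. In that comparison 21 of the 41 were lower, while 5.26% of all genes were lower and 9.88% higher. In PKO-NF1 against PKO 6 of the 41 were higher and 3 lower, against 5.31% and 9.37% of all genes. The 3 lower, of 36 with a ratio, are near the share of all genes. The median of the 36 was log2 0.02, against 0.85 for the members.

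Genes of embryonic, neonatal or regenerating muscle were low. Their sum over 11 genes was 3.13, 5.17, 4.94 and 48.6 CPM in WT, PKO, PKO-NF1 and NF1. In the library labelled NF1 7 of the 11 were higher than in WT, against 10.3% of all genes. The highest there were Myl4, the embryonic light chain (46 to 386 counts), Myf6, a myogenic factor of mature fibres (3 to 322), and Myh8, the neonatal myosin (1 to 88). The satellite cell and myoblast factors Pax7, Myf5, Myod1 and Myog had 18, 10, 70 and 62 counts in NF1 and 0 in the 3 other libraries. Embryonic myosin Myh3 had 2 counts in NF1, and the fetal acetylcholine receptor subunit Chrng, the fusion proteins myomaker (as Tmem8c) and myomixer (as Gm7325) had 0 there.

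Of 8 markers of heart, 4 stayed under the floor of 3 counts in all 4 libraries. Nppa had 0 counts everywhere, Myh6, Nppb and Mybpc3 had at most 2, and Tnni3 and Tnnt2, those with the most counts, had 204 and 144 counts in NF1 against 108 and 50 in WT. Tnnt2 was 2.48-fold higher in NF1 (1.78 to 3.49), and Ryr2, the cardiac release channel, was lower at 21 against 6 counts. Of 10 genes of the neuromuscular junction or of denervated muscle 6 were higher in NF1 than in WT, against 10.3% of all genes. Not called were Musk (1.19-fold higher), Colq (1.37-fold higher), Chrnd (0 to 4 counts) and Runx1. Of the 6 called higher, 4 encode junction proteins: the adult receptor subunit Chrne (2 to 115 counts), Chrna1 (1 to 63), Chrnb1 and the acetylcholinesterase Ache (38 to 126). Those of that list with the highest CPM in NF1 were the atrophy ligase Fbxo32 (22.5 to 52.2 CPM), Gadd45a (11.6 to 39.7) and Chrnb1 (8.08 to 17.05).

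Smooth muscle genes did not follow the fibre genes. Their summed level was 714.6 (WT), 1077 (PKO), 878.8 (PKO-NF1) and 641.7 CPM in the library labelled NF1. Of 9 genes 1 was higher in NF1 than in WT (Synpo2, 4.999-fold), against 10.3% of all genes, so 1 of 9 is near that share. Lower were 2 (Myh11, 3.52-fold, and Cnn1, 8.855-fold), against 6.03% of all genes. Tagln, Smtn and Synpo2 had the highest CPM in NF1, at 322.9, 149.1 and 100.9 CPM. Of 6 further slow or oxidative genes, Smtnl2 (3.12-fold) and Lmcd1 (3.54-fold) were higher in NF1 than in WT, against 10.3% of all genes. Atp2a2, the slow calcium pump that most other cells also use, was 2.19-fold lower (124.3 to 56.8 CPM), against 6.03% of all genes lower. Tpm3, which holds the slow tropomyosin along with non-muscle forms, was at 216.3 CPM in WT and 195.5 in NF1.

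Outside all lists, the 8 genes with the largest lower bound of NF1 over the highest other library, at 5 CPM or more in NF1, were Ppp1r27, Ostn, Txlnb, Asb11, Mlf1, Lrrc30, 2310002L09Rik and Hfe2. In each of the 8 the highest other library was WT. Among WT, PKO and PKO-NF1 alone, WT was highest for 39.4% of all genes. The folds ran from 71.4 for Hfe2 (57.75 to 89.4), which encodes hemojuvelin, to 325 for Ppp1r27 (111 to 1577). They are large by the rule that picked the genes, and some rest on few WT counts (3 for Ppp1r27 and Lrrc30, 5 for Asb11). Ostn, which encodes the secreted peptide osteocrin (musclin), had 10, 0, 1 and 2026 counts in WT, PKO, PKO-NF1 and NF1.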

How the data were processed

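Sciatic nerve RNA of 4 genotypes was sequenced as 1 library each. The authors deposited raw gene counts, unnormalized whole numbers, for 24062 symbols. Per the submitters' processing notes, FastQC 0.11.7, HISAT2 2.0.5, featureCounts 1.5.2 and build mm10 were used; the sources used here do not state strandedness or the handling of reads matching several genes. All 4 columns were used and 0 left out. Depth was 14111201 to 20362685 counts.

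Counts were scaled with edgeR 4.0.16 TMM factors (R 4.3.3) and compared as ratios with exact conditional Clopper-Pearson 95% intervals (Python 3.11.15, scipy 1.17.1). A gene was called when at least 2-fold apart with an interval excluding 1. For the ratio a count of 0 was set to 3 counts, while the interval used the count of 0 itself. No ratio was given where both counts were 3 or fewer. The calls were tested on simulated counts with counting error alone, which says nothing on variation between animals or libraries. No model over the 4 libraries and no p-value was used. Length and GC content came from GENCODE M21 on GRCm38 (22758 symbols matched directly, 935 through a synonym, 369 not), and promoters from RefSeq on GRCm38.p6.

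Members, lists and settings were chosen with earlier results of these data known. Named genes were all 54 members, and by rule both isoforms of each family, the 3 highest per kb in NF1 and the smallest ratio of each role, those nearest 2-fold, the 3 highest of each list and those at 0, and 8 genes outside the lists; a gene that the rule for lists names is not reported here. Alternatives were DESeq2 1.42.0 size factors, total counts, TMM without muscle genes, a 1 CPM filter, thresholds of 1.5-fold and 4-fold, trends over length and GC content subtracted (splines with 4 degrees of freedom), other gene lengths and subsets of members.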

Additional observations from a re-analysis of the deposited data

Results flagged for a closer look

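Of the 43 members with a ratio in PKO-NF1 over PKO, 31 were above 1, and 4 of the remaining members were at least 2-fold apart in opposite directions on the 2 P2ry14 backgrounds: each was called higher in NF1 than in WT and lower in PKO-NF1 than in PKO. By the same rule 9.37% of 15974 genes were lower in PKO-NF1 than in PKO, and 4 of 43 members is close to that share. The share of all genes called in opposite directions was not determined. Ldb3 (1.73-fold lower, 1.11 to 2.74) and Pygm (1.295-fold lower, 1.09 to 1.54) also ran lower in PKO-NF1 with intervals excluding 1, short of 2-fold. This difference between backgrounds was not tested, since there is 1 library per genotype. Myh2, the type IIA myosin, was at log2 6.27 in NF1 over WT and -1.65 in PKO-NF1 over PKO (17 counts in PKO, 5 in PKO-NF1). Xirp1 was at 3.18 and -1.73 (18 and 5 counts), Cmya5 at 4.45 and -1.29 (209 and 79 counts), and Cacna1s at 5.14 and -1.20 (45 and 18 counts). After subtraction of length and GC trends, the values in PKO-NF1 over PKO were -1.14 for Myh2 (2.21-fold lower, 0.782 to 7.655), -1.13 for Xirp1 (2.185-fold, 0.782 to 7.53), -0.91 for Cmya5 (1.88-fold, 1.45 to 2.47) and -0.72 for Cacna1s (1.64-fold, 0.933 to 3.02), and none of the 4 met the 2-fold rule. In NF1 over WT the 4 ratios were 3.74 or more on that scale.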

How the results depend on the processing

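In NF1 against WT the count of members apart stayed between 48 and 50 under all 7 alternatives, and 49 members were highest in NF1 under each of 3 other scalings. The median log2 ratio was 5.37 when scaled by total counts and 5.74 with the length and GC trends subtracted. In the same order it was -2.77 and -2.93 for PKO against WT, and -7.48 and -7.59 for PKO-NF1 against NF1. Total counts also moved the median of all genes, to -0.20, -0.53 and -0.19 in these 3 comparisons. In PKO-NF1 against PKO, 21 members apart became 8 at a 4-fold threshold, all higher, and 18 with the trends subtracted. No called member changed direction under another scaling. The summed share fell to 0.134% (WT), 0.0185% (PKO), 0.03569% (PKO-NF1) and 5.818% (NF1) without the 3 most abundant members, and to 0.168%, 0.0247%, 0.0480% and 7.77% without Des, Tpm2, Eno3 and Ldb3. The fast share had its interval above 50% in 31 of 36 family and library pairs, and in 30 from raw counts. Of 72 fast shares under other lengths 18 left their counting interval, by up to 21.3 percentage points, and 1 crossed 50% (troponin I in PKO).

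With scaling recomputed without the library labelled NF1, an alternative chosen after seeing the data, 22 members were apart in PKO-NF1 against PKO and 33 in PKO against WT, and WT was highest for 39. No paired analysis was possible because each genotype has 1 library. Depth limits members with few reads: Myh7, Myl2 and Myl3 had 0 to 11 counts in all libraries except Myl3 in NF1, and in PKO 10 members had 0 counts and 7 had 1 to 3.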
